A study of Mus musculus with 9 samples.

Results

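The circadian clock genes of the mouse pituitary were described in RNA sequencing counts of the embryonic Rathke's pouch and the adult gland. The 10 genes were taken by name from the annotation of the count tables, *Clock*, *Arntl*, *Per1*, *Per2*, *Per3*, *Cry1*, *Cry2*, *Nr1d1*, *Nr1d2* and *Dbp*, out of 55450 annotated genes. All 10 were among the 19371 genes tested, which averaged 5 or more counts per library over all 9 libraries. Rathke's pouch, the oral epithelium that forms the anterior and intermediate lobes, came from 7 embryos at embryonic day 13.5 that were heterozygous for a Sox2Egfp allele (2 male, 5 female). The adult pituitary, from which the posterior lobe had been taken off, came from 1 male and 1 female mouse in postnatal week 8. All animals had a mixed 129Sv/c57BL6J background and were kept under 12 h of light and 12 h of darkness. The time of day of collection, the sex behind each library and the genotype of the adults are not given in the sources used here, so stage, time of day, tissue makeup and genotype cannot be told apart in the comparison. The question asked of these genes was whether they differed between Rathke's pouch and the mature gland, and how much they varied among animals of 1 stage.

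The clock is a feedback loop of transcription that runs in most cells of the body with a period of about a day. CLOCK and ARNTL (BMAL1) bind E-boxes as a dimer and activate the *Per* and *Cry* genes, whose proteins enter the nucleus and inhibit that dimer. The dimer also activates *Nr1d1* and *Nr1d2*, which encode the REV-ERB repressors of *Arntl*, and *Dbp*, which encodes an activator of D-box genes. Levels of many of these transcripts therefore swing over the day in adult tissues, the pituitary included.

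Depth was 16738863 to 28537311 read pairs counted on genes in the embryos, and 36421545 and 31191117 in adults 1 and 2. CPM is the count divided by the library total, as scaled by the TMM method, times 1000000, and a floor of 3 counts came to 0.220 CPM or less for each embryo and 0.0843 CPM or less for each adult. The intervals and floors given here cover counting error only, since copies made by PCR were not told apart. Embryos 1 and 4 stood apart from the other embryos, with 59.7% and 62.8% of their read pairs falling on genes where the other 5 had 73.9% to 80.0%, and with 14.6% and 16.8% of their counts on 10 globin genes against 0.772% to 2.06%. In the adults, 84.0% and 83.7% of read pairs were on genes. Where leaving out embryos 1 and 4 changed a call, a direction or an order among the clock genes, both values are given.

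The labelled tissues were checked against marker genes. *Hesx1*, a homeobox gene of the early pouch, had 11.0 to 40.3 CPM in the embryos and 0.339 and 0.562 CPM in the adults. *Gh* had 53441 and 63814 CPM in the adults and at most 1.90 CPM in an embryo. *Avp* and *Oxt*, the hormone genes of the posterior lobe's axons, were at 0 in every embryo, except for *Oxt* at 0.198 CPM in embryo 6, and reached no more than 3.43 CPM in an adult. *Rax* and *Nkx2-1*, transcription factor genes of the posterior lobe and hypothalamus, had 29.2 to 92.7 and 13.0 to 41.6 CPM in the embryos and at most 2.11 CPM in an adult.

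Most of the clock genes were higher in the adult. With a call defined as an adjusted p-value under 0.05 together with a difference of more than 4-fold, 6 of the 10 were called higher in the adult (*Clock*, *Per1*, *Per2*, *Per3*, *Nr1d1* and *Nr1d2*), where 14.6% of all tested genes were called in that direction. After a correction for transcript length and GC content, 2 of the 10 were called with the original normalisation factors, as planned (*Nr1d1* and *Nr1d2*, against 10.5% of all genes), and 5 with factors taken on the corrected counts (*Per1*, *Per3*, *Nr1d1*, *Nr1d2* and *Dbp*, against 12.4%). None of the 10 was called higher in the embryo, by edgeR or by the Wald test of DESeq2, where edgeR called 11.3% of all genes. By the adjusted p-value alone, 8 of 10 were higher in the adult (27.4% of all genes) and 0 of 10 higher in the embryo (24.0% of all genes), and at an unadjusted p-value below 0.05 also 0 were higher in the embryo. The same 8 genes, the called 6 with *Cry2* and *Dbp*, had both adults above all 7 embryos, which held for 32.9% of all genes. *Arntl* and *Cry1* passed neither threshold before the correction. After its planned form *Arntl* was higher in the embryo by the adjusted p-value (log2 fold change 0.67, adjusted p = 0.0398), under 4-fold. The median log2 fold change, embryo over adult, was −2.28 over the 10 genes and −0.040 over all tested genes. These counts describe genes picked by name with the results of these libraries known, and the adult group rests on 2 mice.

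**Figure D1:**
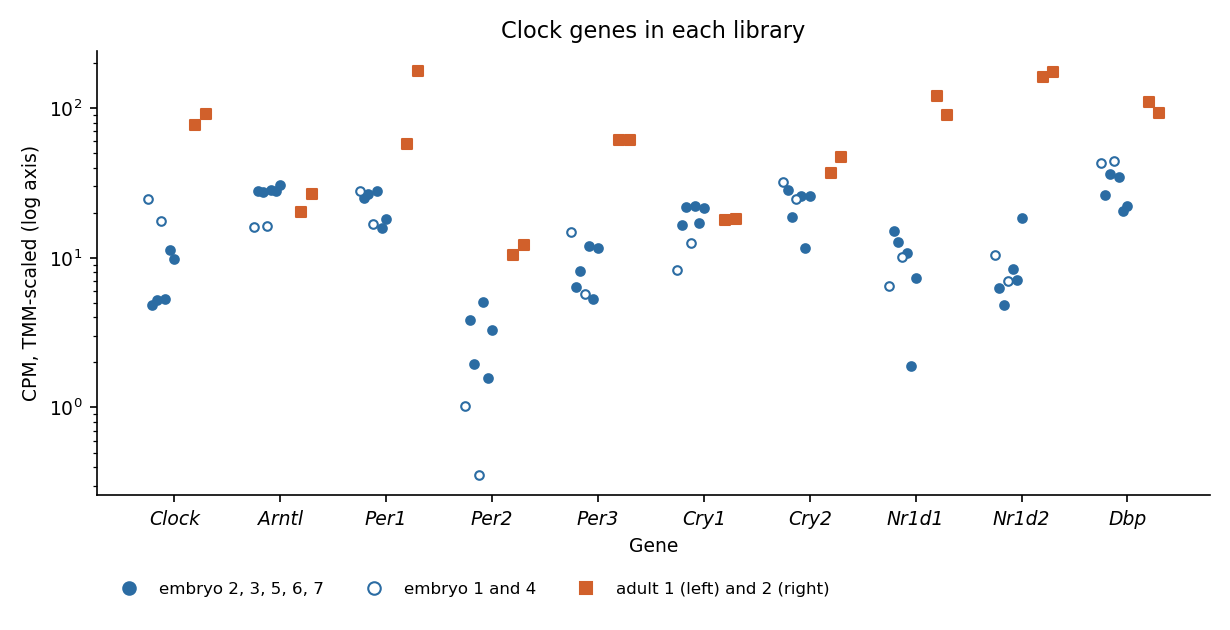
CPM of each clock gene (log axis) in each library, with embryos as circles, embryos 1 and 4 open, and adults as squares. Adults lie above all embryos for 8 of the 10 genes, and the stages overlap for *Arntl* and *Cry1*.

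The RefSeq table of promoter windows held 13 windows for 9 of the 10 genes, each from 250 bases before to 50 bases after an annotated start in GRCm38.p6. They were searched on both strands for the E-box CACGTG, the cAMP response element TGACGTCA, the D-box TTATGTAA or TTACGTAA, and the RORE end TAGGTCA or TGGGTCA that REV-ERB and ROR proteins are known to read. Of all 32851 windows, 7.15% held the E-box, 1.79% the cAMP response element, 1.06% the D-box and 6.45% the RORE end. Of the 13 windows, 4 held a match, each of a different gene, and they are shown because they place the letters of the loop beside genes described in the next paragraphs. Capitals mark the matches, no match overlapped another, and a match is a description of the letters only. *Per1* (chr11:69098699-69098998, plus strand) held the E-box from position −166 relative to the start, and *Cry1* (chr10:85185005-85185304, minus strand) from position −60. *Per3* (chr4:151044616-151044915, minus strand) held the D-box at positions −205 and −158. *Arntl* (chr7:113207261-113207560, plus strand) held the RORE end at position 31 after the start. No cAMP response element of these letters lay in the 13 windows. The windows of *Clock*, *Cry2*, *Nr1d1*, *Nr1d2* and *Dbp* held no match to any of the motifs, and *Per2* was the gene without a window. Each window is written 5′ to 3′ on the strand of its gene.
Per1: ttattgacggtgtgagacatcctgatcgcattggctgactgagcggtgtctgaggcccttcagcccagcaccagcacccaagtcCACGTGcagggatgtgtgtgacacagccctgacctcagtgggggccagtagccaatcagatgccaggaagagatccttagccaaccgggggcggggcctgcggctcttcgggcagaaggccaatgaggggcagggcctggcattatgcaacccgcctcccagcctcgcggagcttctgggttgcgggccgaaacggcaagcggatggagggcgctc
Cry1: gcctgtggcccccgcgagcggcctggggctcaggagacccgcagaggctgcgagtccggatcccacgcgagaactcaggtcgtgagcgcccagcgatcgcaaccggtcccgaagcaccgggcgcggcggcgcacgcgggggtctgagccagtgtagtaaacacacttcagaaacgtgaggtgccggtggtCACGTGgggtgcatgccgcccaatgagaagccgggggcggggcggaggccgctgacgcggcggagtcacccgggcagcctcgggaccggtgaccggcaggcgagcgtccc
Per3: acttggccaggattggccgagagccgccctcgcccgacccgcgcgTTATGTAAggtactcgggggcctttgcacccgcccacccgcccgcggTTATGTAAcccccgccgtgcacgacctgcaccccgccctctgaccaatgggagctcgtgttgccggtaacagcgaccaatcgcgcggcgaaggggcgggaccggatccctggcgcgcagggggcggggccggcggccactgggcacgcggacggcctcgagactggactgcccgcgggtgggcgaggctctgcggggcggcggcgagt
Arntl: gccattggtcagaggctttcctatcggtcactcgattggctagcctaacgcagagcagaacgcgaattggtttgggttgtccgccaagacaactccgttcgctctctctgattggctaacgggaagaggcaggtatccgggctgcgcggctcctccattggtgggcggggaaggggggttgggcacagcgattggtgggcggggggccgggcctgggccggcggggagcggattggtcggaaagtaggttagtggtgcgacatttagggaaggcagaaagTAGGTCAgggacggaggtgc

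Among the activators, *Clock* (ENSMUSG00000029238.11, chr5:76209868-76304792 on GRCm38, minus strand) encodes the partner of ARNTL that carries histone acetyltransferase activity. It had 4.86 CPM in the lowest embryo, a median of 9.78 CPM and 24.7 CPM in the highest embryo, and 77.5 and 91.6 CPM in adults 1 and 2. Every embryo was below both adults, and the embryos themselves were spread, with embryos 1 and 4 highest at 24.7 and 17.6 CPM and embryos 2, 3 and 5 lowest at 4.86, 5.24 and 5.29 CPM. Its log2 fold change, embryo over adult, was −2.92 (standard error 0.47, 95% interval −3.93 to −1.91, edgeR quasi-likelihood test with Benjamini-Hochberg adjustment, adjusted p = 0.000203), a level 7.57-fold higher in the adult. Without embryos 1 and 4 it was −3.51. The call was lost after a correction for length and GC content of the transcripts (log2 fold change −0.90, adjusted p = 0.0597, with the normalisation factors taken on corrected counts, and −0.52, adjusted p = 0.434, with the original factors). The pseudogene *Ube2n-ps1* and the transcript *Gm43658* lie within *Clock* on the same strand, and STAR counts no read pair that falls on exons of more than 1 gene.

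*Arntl* (ENSMUSG00000055116.8, chr7:113207465-113314126, plus strand) encodes the obligatory partner of CLOCK. It had 16.2 CPM in the lowest embryo, a median of 27.9 CPM and 30.8 CPM in the highest embryo, and 20.2 and 26.5 CPM in the adults. The groups overlapped: embryos 1 and 4, both at 16.2 CPM, were below the adults and the other 5 embryos, at 27.4 to 30.8 CPM, above them. The log2 fold change of 0.10 (95% interval −0.57 to 0.77, adjusted p = 0.808) was within the spread between libraries, and the interval reaches no 2-fold difference either way. After the planned length and GC correction *Arntl* was higher in the embryo by the adjusted p-value (0.67, adjusted p = 0.0398), under 4-fold. With factors taken on corrected counts it was at 0.41 (adjusted p = 0.140). The sign of the uncorrected value changed under the library size alone (−0.080) and without adult 1 (−0.10). Without embryos 1 and 4 the value was 0.31 (adjusted p = 0.297). In the other direction from *Clock*, then, the same pair of embryos was low, and per length the level of *Arntl* over that of *Clock* was 1.20 and 1.68 for embryos 1 and 4, 4.53 to 10.5 for the other 5, and 0.476 and 0.528 for the adults, a ratio chosen after the values were seen. Whether the share of read pairs on genes or the globin counts of embryos 1 and 4 have a part in these values was not tested.

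The *Per* genes encode repressors that act in a complex with CRY proteins, and *Per1* and *Per2* are also known to respond to signals from outside the cell. *Per1* (ENSMUSG00000020893.17, chr11:69095217-69109960, plus strand) had 15.9 CPM in the lowest embryo, a median of 25.1 CPM and 28.1 CPM in the highest embryo, and 57.4 and 177 CPM in adults 1 and 2. The embryos lay close together below both adults, while the adults were far apart. *Per1* was 5.18-fold higher in the adult (log2 fold change −2.37 ± 0.33 standard error, adjusted p = 6.89e-05). Adult 2 decided the call, since without it the log2 fold change was −1.35 (adjusted p = 0.0168, the lone adult being assumed to vary like the embryos), below a 4-fold difference. The planned length and GC correction also ended it (−1.70), as did a block on replicates 1 and 2 (−1.88). The same 4 libraries without a block gave −2.10.

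*Per2* (ENSMUSG00000055866.9, chr1:91415982-91459324, minus strand) was the lowest of the 10 genes in counts, with 5 to 140 counts in an embryo library and 431 in each adult library. It had 0.353 CPM in the lowest embryo (exact Poisson 95% interval 0.114 to 0.823), a median of 1.95 CPM and 5.07 CPM in the highest embryo, and 10.4 and 12.1 CPM in the adults. Embryos 4 and 1 were lowest, and no embryo reached an adult. *Per2* was 4.55-fold higher in the adult (log2 fold change −2.19 ± 0.60 standard error, adjusted p = 0.00786). The call did not hold without embryo 4 (−1.95), without embryos 1 and 4 (−1.81) or after the length and GC correction (−1.58), where the fold change fell under 4 with adjusted p of 0.00588, 0.00319 and 0.0329, nor without adult 2 (−2.09, adjusted p = 0.0607).

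*Per3* (ENSMUSG00000028957.12, chr4:151003652-151044665, minus strand) had 5.30 CPM in the lowest embryo, a median of 8.16 CPM and 14.9 CPM in the highest embryo, and 61.5 CPM in each adult. The adults were alike and above all embryos, of which embryo 1 was highest and embryo 6 lowest. Adult levels of *Per3* were 6.72-fold higher (log2 fold change −2.75 ± 0.34 standard error, adjusted p = 2.36e-05). The planned length and GC correction ended the call (−1.72, adjusted p = 0.00365). The locus lies within *Camta1* on the same strand, so read pairs from unannotated transcripts of 1 of the genes could be counted on the other.

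The cryptochromes close the loop by repressing CLOCK and ARNTL. *Cry1* (ENSMUSG00000020038.10, chr10:85131700-85185064, minus strand) had 8.27 CPM in the lowest embryo, a median of 17.1 CPM and 22.2 CPM in the highest embryo, and 18.0 and 18.2 CPM in the adults. The adults lay within the range of the embryos, of which embryos 1 and 4 were lowest at 8.27 and 12.6 CPM. Embryo over adult, the log2 fold change was −0.071 (95% interval −0.83 to 0.69, adjusted p = 0.879), and its sign turned without embryos 1 and 4 (0.17, adjusted p = 0.624) and without either of them alone.

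*Cry2* (ENSMUSG00000068742.11, chr2:92403646-92434043, minus strand) had 11.6 CPM in the lowest embryo, a median of 25.8 CPM and 32.1 CPM in the highest embryo, and 37.1 and 47.2 CPM in the adults. Both adults were above all embryos, with embryo 1 nearest and embryo 6 farthest. The level of *Cry2* in the adult was 1.77-fold that in the embryo, and so under the 4-fold threshold (log2 fold change −0.82 ± 0.32 standard error, adjusted p = 0.0431). The adjusted p-value did not stay below 0.05 without embryo 3 (0.0838), 4 (0.0714), 5 (0.0567) or 6 (0.0533), without adult 1 (0.0906) or adult 2 (0.287), with the unstranded count (0.0510), with no filter on low counts (0.0505), without globin genes (0.0554), in the replicate block (0.431) or after the planned length and GC correction (−0.41, adjusted p = 0.387). A ratio chosen after the values were seen, *Cry2* over *Cry1* per length, was 1.09 and 1.37 in the adults and 0.357 to 2.05 in the embryos (median 0.630), with embryo 1 at 2.05 above both adults.

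The REV-ERB genes, the repressor arm that acts on *Arntl*, had the largest log2 fold changes among the 10, except that without embryos 1 and 4 *Clock* (−3.51) was past *Nr1d1* (−3.44). *Nr1d2* (ENSMUSG00000021775.11, chr14:18204054-18239127, minus strand) had 4.83 CPM in the lowest embryo, a median of 7.08 CPM and 18.4 CPM in the highest embryo, and 161 and 176 CPM in the adults. All embryos were far below the adults, and embryo 7 was apart from the other 6, which had at most 10.5 CPM. *Nr1d2* was 18.8-fold higher in the adult (log2 fold change −4.23 ± 0.35 standard error, adjusted p = 9.87e-07). After the length and GC correction it was 9.41-fold higher (−3.23), and −2.98 with the original normalisation factors.

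*Nr1d1* (ENSMUSG00000020889.11, chr11:98767932-98775333, minus strand) had 1.88 CPM in the lowest embryo, a median of 10.1 CPM and 15.0 CPM in the highest embryo, and 121 and 90.3 CPM in the adults. The groups were far apart, and embryo 6, the lowest, had 38 counts against 88 to 445 in the other embryos. Adult levels of *Nr1d1* were 11.5-fold higher (log2 fold change −3.52 ± 0.44 standard error, adjusted p = 2.38e-05). The gene overlaps *Thra* on the opposite strand, and the count of the strand opposite to *Nr1d1* was 239 to 1172 read pairs per embryo, and in the adults it was 856 and 725. The strand-specific count used here separates these from *Nr1d1*. With the unstranded count, in which STAR assigns no read pair that lies on both genes, the log2 fold change was −3.46. *Nr1d1* and *Nr1d2* were the 2 of the 10 that passed when a difference beyond 4-fold was itself tested, which 5.84% of all genes passed on the adult side, with adjusted p of 0.00933 and 0.000134.

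*Dbp* (ENSMUSG00000059824.12, chr7:45705088-45710203, plus strand), the output gene, had 20.5 CPM in the lowest embryo, a median of 34.9 CPM and 44.1 CPM in the highest embryo, and 110 and 92.7 CPM in the adults. No embryo reached an adult, and embryos 1 and 4 were nearest at 42.8 and 44.1 CPM. *Dbp* was 3.12-fold higher in the adult (log2 fold change −1.64 ± 0.29 standard error, adjusted p = 0.000399). Without embryos 1 and 4 it was at −1.82, past *Per2* (−1.81), where with all embryos *Per2* (−2.19) was past *Dbp*. After the length and GC correction *Dbp* was at −2.25 (adjusted p = 8.83e-06), past the 4-fold threshold. With the original normalisation factors, as planned, it was at −1.94, under that threshold.

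Fold changes in these libraries went with transcript length. Over all 19371 tested genes, which are not independent replicates, the Spearman correlation of the log2 fold change with the length of the longest transcript was −0.388, and that with GC content was 0.198. The longest transcript of *Clock* has 9744 bases and a GC content of 40.9%, where the medians over tested genes were 2969 bases and 49.6%, and that of *Dbp* has 1837 bases and 61.6%. A correction of each library for both properties brought the correlations to 0.0598 and −0.0197. It was run with the normalisation factors taken on the corrected counts, a setting chosen after seeing the data, and left the median log2 fold change of all genes at 0.012. With it, 5 of the 10 genes were called higher in the adult (*Per1*, *Per3*, *Nr1d1*, *Nr1d2* and *Dbp*), where 12.4% of all genes were. *Per1* and *Per3* (−2.02) were barely past the 4-fold threshold. With the original normalisation factors, as planned, the correction shifted the median of all genes by 0.33 and 2 of the 10 were called higher in the adult, *Nr1d1* and *Nr1d2* (−2.98), where 10.5% of all genes were, with *Per1* at −1.70, *Per3* at −1.72 and *Arntl* at 0.67 (adjusted p = 0.0398). With factors on the corrected counts, *Nr1d2* moved from −4.23 to −3.23, *Nr1d1* from −3.52 to −3.92, *Cry2* from −0.82 to −0.73, and *Arntl* from 0.10 to 0.41 (adjusted p = 0.140). The largest move was that of *Clock*, by which its adult level came to 1.86-fold that of the embryo in place of 7.57-fold.

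**Figure D2:**
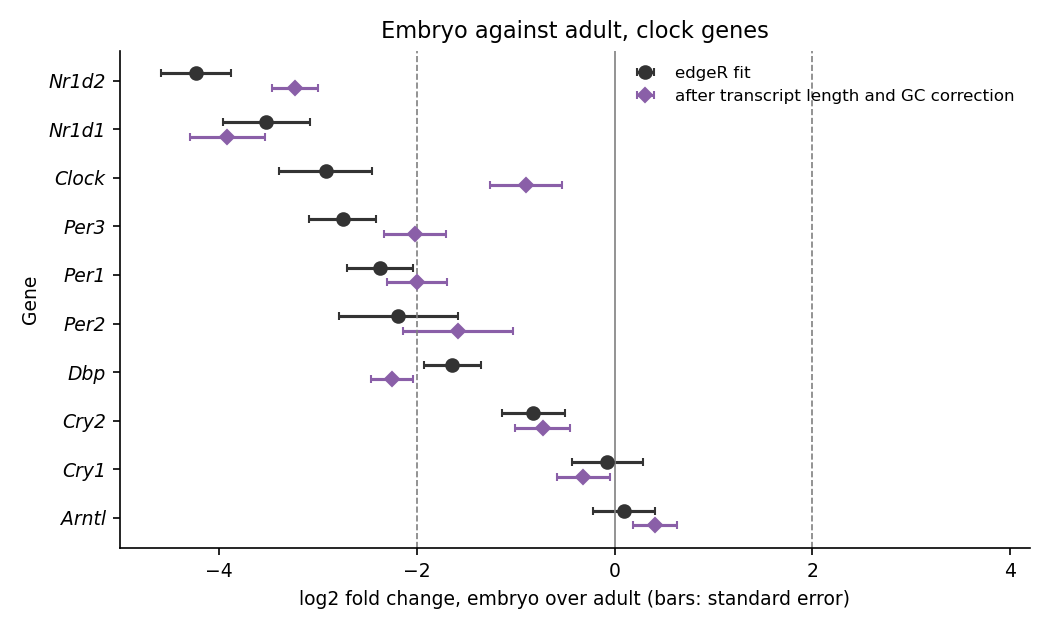
Log2 fold change, embryo over adult, of each clock gene with its standard error, from the edgeR fit (circles) and with transcript length and GC content corrected (diamonds). The correction drawn has normalisation factors taken on corrected counts, a setting chosen after seeing the data. Dashed lines mark a 4-fold difference, and *Clock* moves from −2.92 to −0.90 while *Nr1d1* and *Nr1d2* stay beyond −3 in both. With the planned correction, not drawn, *Clock* was at −0.52, *Nr1d1* at −3.66 and *Nr1d2* at −2.98, and no other clock gene was called.

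To compare levels between genes, counts were divided by the merged exon length and scaled to a common sum per library (1000000). On that scale, *Dbp* was highest in the embryo, with 22.0 ± 6.30 (SD, n = 7), followed by *Cry1* with 11.9 ± 6.59, *Per1* with 8.70 ± 3.57, *Cry2* with 8.10 ± 3.63, *Arntl* with 7.60 ± 3.84 and *Nr1d1* with 6.60 ± 4.05. The lower levels were those of *Nr1d2* with 3.80 ± 3.24, *Per3* with 2.08 ± 1.16, *Clock* with 1.50 ± 0.622 and *Per2* with 1.05 ± 0.868. *Dbp* was above *Cry1*, and *Nr1d2* above *Per3*, in 7 of 7 embryos. The other neighbours changed places in at least 1 embryo, so that *Per1*, *Cry2*, *Arntl* and *Nr1d1* did not differ beyond their spread. Without embryos 1 and 4, a setting chosen after seeing the data, the mean of *Clock* (1.33) was under that of *Per2* (1.40) and that of *Arntl* (9.57) above that of *Cry2* (9.09), while the other 6 genes kept their rank.

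In the adult, level per length was highest for *Nr1d1* with 97.2 ± 20.7 (SD, n = 2), *Dbp* with 95.7 ± 12.0 and *Nr1d2* with 88.1 ± 4.70, by their means. *Per1* had 29.0 in adult 1, under all 3, and 88.6 in adult 2, where it was above *Dbp* (87.2) and *Nr1d1* (82.6) and under *Nr1d2* (91.4). Lower means were those of *Cry2* with 18.9 ± 3.06, *Per3* with 18.1 ± 0.141, *Clock* with 17.4 ± 1.94, *Cry1* with 15.3 ± 0.0606, *Arntl* with 8.78 ± 1.61 and *Per2* with 5.45 ± 0.531. *Cry2*, *Per3* and *Clock* did not differ beyond their spread. *Per2* had the lowest mean in the adult and, with all 7 embryos, in the embryo. By the mean *Cry1* was 2nd of 10 in the embryo and 8th in the adult, and *Nr1d1* 6th and 1st. With the longest transcript as length *Cry1* was 3rd in the embryo, behind *Arntl*, and *Nr1d1* was 2nd in the adult, behind *Dbp*. Per length, *Nr1d1* was at 0.164 to 1.52 times the level of *Arntl* in embryos and at 14.6 and 8.33 times in adults, a ratio chosen after the values were seen.

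**Figure D3:**
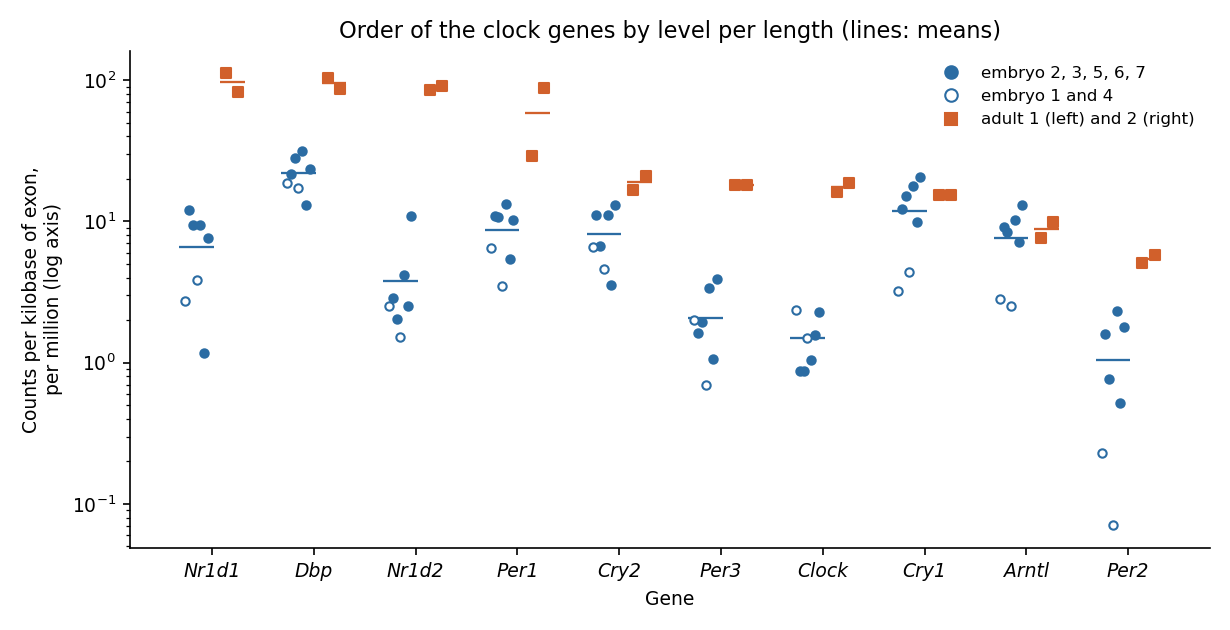
Level of each clock gene per length (counts per kilobase of merged exons, scaled to a sum of 1000000 per library, log axis), ordered by the adult mean, with lines at the stage means. *Nr1d1*, *Dbp* and *Nr1d2* have the highest adult means, with *Per1* among them in adult 2, and *Dbp* is highest in every embryo.

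Among the 7 embryos, which were single animals of 1 age, the clock genes varied to different degrees. The SD of log2 CPM, taken after 0.5 CPM was added to each value, had a median of 0.53 over the 10 genes. It was 0.42 over the 11446 genes with an embryo mean of at least 5 CPM, which *Per2* (2.44 CPM) does not reach. The added 0.5 CPM lowers the SD most for genes of low CPM such as *Per2*. The ratios of the highest to the lowest embryo are without it. *Per1* (SD 0.36), *Arntl* (0.39) and *Dbp* (0.44) were the least variable, with the highest embryo 1.77, 1.90 and 2.15 times the lowest. By the SD with 0.5 CPM added, *Per2* (0.94), *Nr1d1* (0.90) and *Clock* (0.88) were the most variable, with ratios of 14.4, 7.99 and 5.07. Single embryos carried some of these ratios, since without embryo 4 that of *Per2* was 4.95, without embryo 6 that of *Nr1d1* was 2.33, and without embryo 7 that of *Nr1d2* fell from 3.82 to 2.17. Without embryos 1 and 4, the ratio was 2.32 for *Clock*, 3.20 for *Per2*, 1.12 for *Arntl* and 1.35 for *Cry1*. *Nr1d1* (SD 1.08) and *Nr1d2* (SD 0.69, ratio 3.82) were then the most variable, ahead of *Per2* (0.59) and *Clock* (0.54). Part of the gap between *Nr1d2* and *Per2* comes from the added 0.5 CPM. *Arntl* (0.063) and *Cry1* (0.21) were the least variable. The median SD without embryos 1 and 4 was 0.50 over the 10 genes and 0.38 over all genes, a setting chosen after seeing the data. The embryos at the ends were not the same for all genes. Embryo 6 was lowest for *Per1*, *Per3*, *Cry2*, *Nr1d1* and *Dbp*, and embryo 1 was highest for *Clock*, *Per1*, *Per3* and *Cry2* and lowest for *Arntl* and *Cry1*. No correlation among the genes across embryos is given. Embryos 1 and 4 stood apart in read pairs on genes and in globin counts, and the other 5 are fewer than 6.

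Between the adults, 9 of the 10 genes differed by at most 1.34-fold. *Per1* was 3.09-fold higher in adult 2 than in adult 1 (95% counting interval 2.94 to 3.24). Of the 12052 tested genes with a mean of at least 5 CPM, 62 (0.514%) differed at least as much between the adults in either direction, and the median absolute log2 ratio was 0.16. *Arntl* was 1.31-fold and *Cry2* 1.27-fold higher in adult 2, while *Nr1d1* was 1.34-fold and *Dbp* 1.18-fold higher in adult 1. *Per3* (ratio 0.999) and *Cry1* (1.02) were alike in both. With 1 mouse on each side these ratios have no replicate check.

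Genes of the pathway and marker lists were set beside *Per1* after the values were seen. *Sik1* had 27.6 and 90.1 CPM in adults 1 and 2, *Crem* 43.6 and 105, *Nfil3* 11.7 and 31.5 and *Noct* 17.2 and 33.1, picked for being higher in adult 2. Of all 50 genes of the pathway lists, 22 were higher and 28 lower in adult 2, with a median ratio of 0.974 to adult 1, and *Crtc1* (94.2 and 80.3 CPM) and *Bhlhe41* (63.7 and 54.9) were among the lower. *Nr4a1*, an immediate early gene, had 130 and 561 CPM, whereas *Fos* had 264 and 133, *Egr1* 236 and 160 and *Ier2* 60.4 and 36.1, lower in adult 2, and the 7 immediate early genes summed to 879 and 1103 CPM. The 6 glucocorticoid-induced genes summed to 242 and 250 CPM. The hormone genes differed too, with *Pomc* at 27000 and 61903 CPM and *Prl* at 62090 and 29377 CPM in adults 1 and 2. The part of the hour of collection, of sex or of tissue makeup in the difference in *Per1* was not tested.

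**Figure D4:**
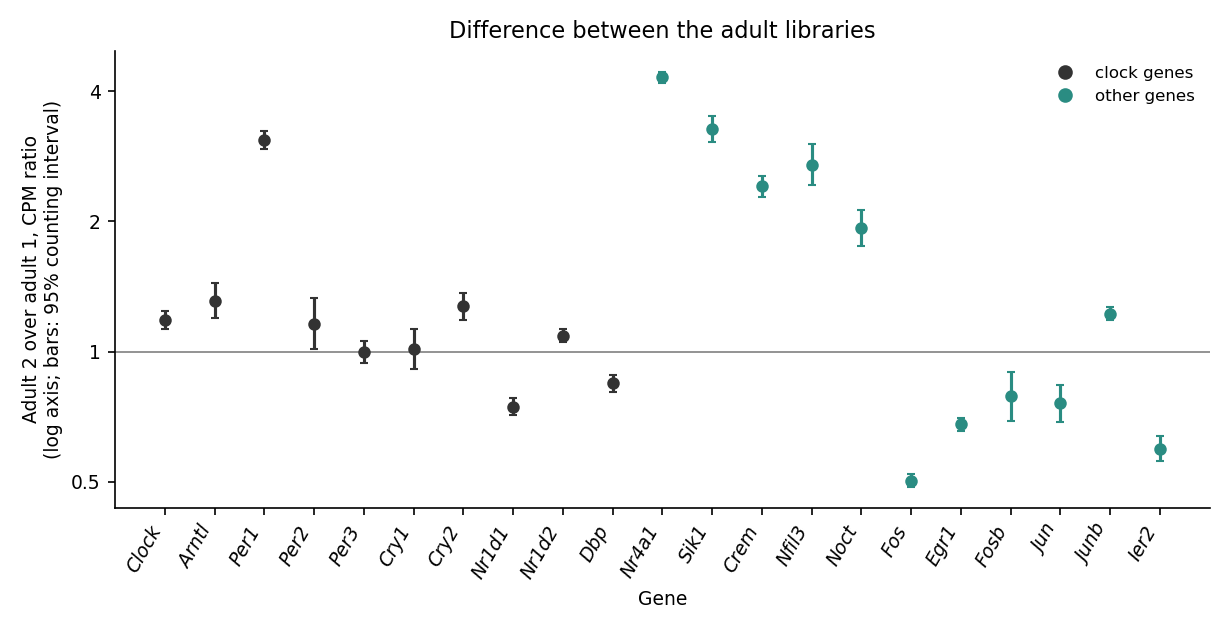
Ratio of CPM in adult 2 to adult 1 (log axis), with 95% intervals for counting error. Clock genes are dark. Green marks pathway genes picked for being higher in adult 2, and the immediate early genes. *Per1* lies at 3.09 while the other clock genes lie between 0.746 and 1.31.

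The other genes of the clock pathway were 50 in 5 lists and all tested. Of them, 13 (26%) were called higher in the adult, where 14.6% of all tested genes were, and 2 (4%) higher in the embryo, where 11.3% were. Their median log2 fold change was −1.06. After the length and GC correction 7 (14%) were called higher in the adult, near the 12.4% of all genes, and 2 (4%) higher in the embryo, against 8.38%, and the median was −0.23.

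Of 13 transcriptional partners, 4 (30.8%) were called higher in the adult and 1 (7.69%) higher in the embryo, against 14.6% and 11.3% of all tested genes. After the correction 3 (23.1%) and 1 (7.69%) were, against 12.4% and 8.38%. *Bhlhe40* and *Bhlhe41*, which encode DEC repressors that compete for E-boxes, had at most 4.78 and 5.12 CPM in an embryo, and 64.7 and 65.7 CPM and 63.7 and 54.9 CPM in the adults. Their log2 fold changes were −4.51 (adjusted p = 1.63e-05) and −4.34 (adjusted p = 1.01e-06). *Rora*, an activator that competes with REV-ERB proteins, had −3.33, which became −1.12 after the correction. *Npas2*, a gene that can stand in for *Clock*, was low at 0 to 2.25 CPM in the embryos and 4.26 and 6.29 CPM in the adults (log2 fold change −2.33, adjusted p = 0.0176, with −2.16, adjusted p = 0.0275, after the correction and −1.92, adjusted p = 0.0513, after the planned form of it). *Timeless*, which in mammals also acts in DNA replication, was the gene called higher in the embryo (2.06, adjusted p = 0.00326).

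Of the 10 genes for turnover and kinases reported here, 3 were higher in the adult and 2 higher in the embryo by the adjusted p-value, each by less than 4-fold, which is near the shares of all genes by that threshold (27.4% and 24.0%). Among them *Usp7* (−1.70) and *Gsk3b* (−1.43) were higher in the adult, and *Csnk1e*, a kinase for PER proteins (1.50), and *Csnk2b* (1.25) higher in the embryo. After the correction *Usp7* was at −0.84 and *Csnk1e* at 1.30, while *Gsk3b* was at 0.11 (adjusted p = 0.770) and *Csnk2b* at −0.18 (adjusted p = 0.496). Of 11 cofactors, 1 was called, *Kmt2a* (−2.55, and −0.64 after the correction), while by the adjusted p-value alone 3 were higher in the adult and 4 higher in the embryo. Among these were *Ep300* (−1.89, and −0.50 with adjusted p = 0.157 after the correction), *Nono* (1.49) and *Hdac3* (1.38). In embryos 1 and 4, in which *Clock* was also highest, the cofactor gene *Crebbp* had 110 and 93.1 CPM against 17.1 to 23.7 CPM in the other embryos. *Crebbp* was picked after the values were seen. The cofactors were not alike in this, with *Nono* lowest in embryos 1 and 4 (433 and 632 CPM).

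Of 6 outputs, 3 (50%) were called higher in the adult, against 14.6% of all tested genes. After the correction 1 (16.7%) was, against 12.4%. *Usp2*, whose transcript follows the clock in many tissues, had 2.97 to 5.98 CPM in the embryos and 43.5 and 44.3 CPM in the adults (log2 fold change −3.30, adjusted p = 1.21e-06, and −3.25 after the correction). *Noct* (−2.24) and *Nampt* (−2.05) were at −0.40 and −0.99 after the correction. Of 10 inputs, 5 (50%) were called higher in the adult and 1 (10%) higher in the embryo, against 14.6% and 11.3% of all tested genes. After the correction 3 (30%) and 1 (10%) were, against 12.4% and 8.38%, with *Crem* (−2.07) at −1.73 and *Nr3c1* (−2.69) at −1.24. *Rasd1*, a dexamethasone-induced Ras gene, had 0.544 to 2.36 CPM in the embryos and 93.0 and 129 CPM in the adults (−6.39, adjusted p = 4.98e-08). *Adcyap1r1*, the receptor of PACAP, had −3.70 (adjusted p = 7.75e-06), and *Sik1* −2.76 (adjusted p = 0.00171). *Mtnr1a*, the melatonin receptor of the pars tuberalis, had 5.27 to 22.7 CPM in the embryos and 0.0969 and 0.365 CPM in the adults, from 4 and 13 counts, and a log2 fold change of 6.18 (adjusted p = 1.57e-05).

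**Figure D5:**
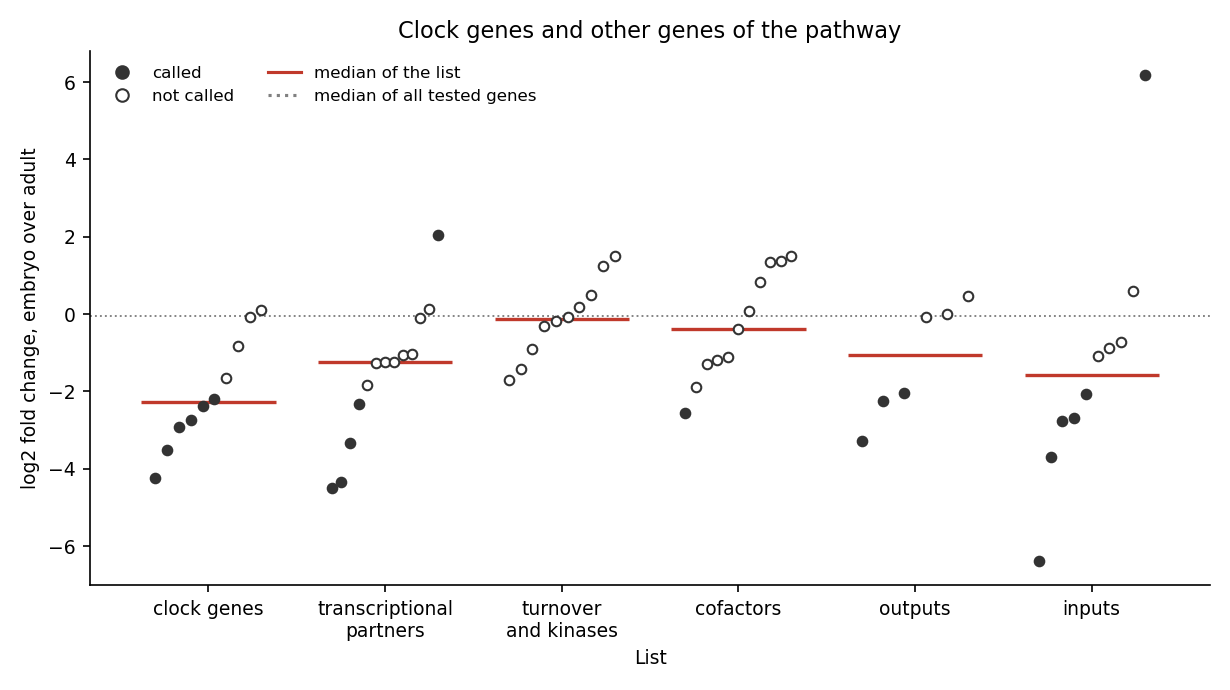
Log2 fold change, embryo over adult, of the clock genes and of the genes of 5 pathway lists, with called genes filled, list medians as red lines and the median of all tested genes dotted. The median is −2.28 for the clock genes and lies between −1.58 and −0.12 for the lists.

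Markers of other cells moved between the stages beside the clock genes. In bulk tissue, fewer cells of a type and less RNA per cell cannot be told apart. Of all tested genes, 14.6% were called higher in the adult and 11.3% higher in the embryo. Of the 8 hormone cell genes, 7 were called higher in the adult, and they summed to 872 to 1920 CPM in the embryos, led by *Cga*, and to 152537 and 160062 CPM in the adults, led by *Prl* in adult 1 and *Gh* in adult 2, with *Lhb* under 1 CPM in every embryo. Of the 6 pouch epithelium genes, 2 were called higher in the embryo (sum 490.2 to 1129 CPM in the embryos, led by *Pitx1*, and 465 and 387 CPM in the adults), and *Hesx1* was under 1 CPM in both adults. Of the 6 erythroid genes, 5 were called higher in the embryo, with sums of 167292 and 209380 CPM in embryos 1 and 4, 6011 to 18625 CPM in the other 5 and 745 and 1896 CPM in the adults, and *Hbb-y*, the most abundant in the embryo, was under 1 CPM in both adults. Of the 6 posterior lobe and hypothalamus genes, 3 were called higher in the embryo and 2 in the adult (sum 47.0 to 135 CPM in the embryos, led by *Rax*, and 6.20 and 9.33 CPM in the adults). Mesenchyme genes had 3 of 4 called higher in the embryo (335 to 1184 CPM, led by *Col1a2* in the mean, against 429 and 267 CPM). None of 3 endothelial genes (72.3 to 289 CPM, led by *Cdh5* in the mean, against 87.6 and 49.8 CPM), 3 macrophage genes (86.4 to 219 CPM against 65.3 and 97.7 CPM) and 3 neuron genes (41.5 to 304 CPM, led by *Tubb3*, against 102 and 68.7 CPM) was called. Of the 7 immediate early genes 4, and of the 6 glucocorticoid-induced genes 2, were called higher in the adult. There the former summed to 879 and 1103 CPM against 101 to 443 CPM in the embryos, and the latter to 242 and 250 CPM against 134 to 201 CPM. These lists were not uniform. By the adjusted p-value, under 4-fold, *Jun* (log2 fold change 1.38, adjusted p = 0.0165) and *Tsc22d3* (1.07, adjusted p = 0.00710) were higher in the embryo. For both, every embryo was above both adults. The part of these cell types in the differences of the clock genes was not tested.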

How the data were processed

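RNA was measured in 7 Rathke's pouch and 2 adult pituitary libraries, grouped by their labels. The authors trimmed read pairs with Trimmomatic 0.39, aligned them to mm10 (GRCm38) with STAR 2.7.5b and deposited raw counts per gene of Ensembl release 96 (GENCODE M21). All 55450 identifiers matched that annotation. The strand-specific count (column 4, with 18.4 to 21.8 times the total of the other strand) was used. Counts were normalised by TMM and tested with the quasi-likelihood test of edgeR 4.0.16 (R 4.3.3), stage as the only term, for the 19371 genes averaging 5 or more counts. Calls needed an adjusted p-value (Benjamini-Hochberg over all tested genes) below 0.05 and a fold change above 4, and adjusted p-values are from this test. Standard errors are the log2 fold change over the root of F. DESeq2 1.42.0, other scalings, filters and thresholds, left-out libraries and a spline correction (4 degrees of freedom) for transcript length and for GC content were alternatives. The correction with its own TMM factors, the fit without globin genes and replicates 1 and 2 without a block were chosen after seeing the data. Sex is not given per library and was not used. Members and lists were chosen with earlier results of these data known. Named genes are the 10 members, the 4 largest changes with adjusted p below 0.05 in each pathway list, and the marker lists (pouch epithelium, hormone cells, posterior lobe and hypothalamus, erythroid, endothelial, macrophage, mesenchyme, neuron, pars tuberalis, immediate early, glucocorticoid-induced); other genes were named after their values were seen. Of the genes planned for these lists, 1 pathway gene and 1 marker gene are not reported here and were left out of the counts and sums. Genes most like *Dbp* and *Arntl* across embryos were not named, since embryos 1 and 4 stood apart in read pairs on genes and in globin counts. Tables and intervals were made with Python 3.11.15, matplotlib 3.10.9, scipy 1.17.1, pandas 2.3.3 and numpy 2.4.6. The test was tried on simulated counts with known changes, and no value from that trial is given or used here. The animals are separate, so p-values measure the spread between animals, with a single difference within the adults.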

Additional observations from a re-analysis of the deposited data

Results flagged for a closer look

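In embryo 7, *Nr1d2* had 18.4 CPM, against 4.83 to 10.5 CPM in the other 6 embryos. It lay far from the rest of its group, with a gap to the nearest embryo of 0.586 of the whole range. Of 29 genes examined in this way (the 10 members and 19 named pathway genes), 1 met the criterion, which chance meets in about 1 in 20 groups. Without embryo 7 the log2 fold change of *Nr1d2* was −4.52, in place of −4.23. Embryo 7 had the highest share of read pairs on genes among the embryos (80.0%) and the lowest share on globin genes (0.772%), and their part in this value was not tested.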

How the results depend on the processing

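Of the members, 6 were called, and called members were higher in the adult under every alternative run. The number was 2 (*Nr1d1* and *Nr1d2*) when the fold change was tested against 4 (5.84% of all genes on the adult side) and after the planned correction of length and GC content (10.5%), and 4 to 6 with each library left out. Called pathway genes numbered 15. In the test against 4 they numbered 7 (6 higher in the adult, 1 in the embryo, against 1131 and 613 of all 19371 genes). At a fold change above 2 they numbered 29 (22 and 7, against 4805 and 4155 of all genes). By the adjusted p-value alone they numbered 31 (23 and 8, against 27.4% and 24.0% of all genes). After the planned correction they numbered 8 (6 and 2, against 2035 and 2078 of all genes). With its factors taken on corrected counts they numbered 9 (7 and 2, against 12.4% and 8.38%). With each library left out they numbered 10 to 15. The planned correction moved the median of all genes by 0.33 on the log2 scale, and relative to that shift *Clock* was at −0.85, *Per1* at −2.04, *Per2* at −1.75, *Per3* at −2.05 and *Dbp* at −2.27. It also moved the share of all calls that were higher in the adult from 56.4% to 49.5%, and with factors taken on corrected counts it was 59.7%. Library size alone moved the median by −0.22, and *Arntl* was at −0.080 there (0.14 relative to the shift).

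Replicate numbers do not pair the animals (correlations of same-numbered deviations 0.0331 and 0.000303). A replicate block on replicates 1 and 2 gave 5 members (*Clock*, *Per2*, *Per3*, *Nr1d1* and *Nr1d2*) and 17 pathway genes. Of all 19897 genes in that fit, 2447 were called higher in the adult and 1704 higher in the embryo. *Arntl* was at −0.077 there, and the median of all genes moved by −0.21. The same 4 libraries without a block gave 4 members (*Per1*, *Per3*, *Nr1d1* and *Nr1d2*) and 14 pathway genes. Of all genes, 2194 and 1781 were called there, and *Arntl* was at −0.039. The sign of *Arntl* also turned without adult 1, within a range of −0.10 to 0.29 over single libraries left out. That of *Cry1* ranged from −0.14 to 0.10 there and was 0.17 without embryos 1 and 4. *Cry1* turned without embryo 1 (0.097) and without embryo 4 (0.042). Causes were not tested. *Per2* was left out by a filter of 10 counts in every library. With the longest transcript as length, 7 of 10 members kept their rank in the embryo and 8 in the adult, and without embryos 1 and 4, 6 did in the embryo. The correlations planned across embryos were not run. Among the 10 members, depth limited *Per2* most, with 5 counts in embryo 4.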
